A study of Mus musculus with 28 samples.

Results

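The genes described here are named as protein subunits of the cytosolic ribosome or as paralogues of these. They were chosen by gene symbol alone, as the rows named Rpl or Rps followed by a subunit number or by the letters of the P-stalk and Rpsa genes, with the paralogue endings a, l, al, l1 and x. Of 24421 gene rows in the count tables, 84 matched, 52 named for the large subunit and 32 for the small subunit. Among the 84 is Rps4l, which is annotated as a transcribed processed pseudogene. The pattern leaves out ribosomal protein genes with other symbols, such as Fau, Gnb2l1 and Rps3a1; 4 of these in the tables form a comparison list.

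A ribosome holds a single copy of nearly every subunit protein, and the genes that encode them lie scattered over the genome and are transcribed at high rates in most cells. Their mRNAs are short and begin with a tract of pyrimidines, the 5' terminal oligopyrimidine (TOP) tract, through which mTOR signalling and the RNA-binding protein LARP1 set how much they are translated and how long they last. Several of the proteins also have a retrocopy or tissue-restricted paralogue that can take the place of the usual subunit. In dendritic cells, as in other immune cells, production of ribosomes is tied to growth and to the capacity for making protein.

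The study asked how the transcription factor IRF8 acts in mature dendritic cells of the spleen. RNA-seq was run on 28 libraries of dendritic cells sorted from the spleens of untreated C57Bl/6 mice aged 6 to 12 weeks. The group pDC_TG held 4 libraries of plasmacytoid dendritic cells, the main producers of type I interferon, taken from the Irf8fl/fl Itgax-cre line, whose Cre transgene uses Itgax (CD11c) regulatory DNA and is therefore active in CD11c-expressing cells. The groups cDC1_WT (CD24+ conventional dendritic cells), cDC2_WT (CD172a+ conventional dendritic cells) and pDC_WT (plasmacytoid dendritic cells) held 8 libraries each from Irf8fl/fl mice, which carry the loxP-flanked Irf8 alleles as the pDC_TG mice do, but no Cre. The labels number the mice of each group, but do not say whether a number stands for 1 mouse or a pool, or for the same mice in different cell types. The p-values measure the spread between these samples, and WT libraries were treated as independent.

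Gene counts per library ran from 17299285 to 30787679. Irf8 averaged 1461 ± 257 CPM (counts scaled to library size with TMM factors) in pDC_TG and 6145 ± 459 CPM in pDC_WT (SD, n = 4 and 8), a log2 fold change of -2.07 (SE 0.13, edgeR quasi-likelihood test, Benjamini-Hochberg adjusted p = 4.43e-13; exact two-sided permutation test p = 0.00202, the smallest that 495 splits can give). The 10 pDC markers summed to 8974 to 12296 CPM in pDC_TG and 10455 to 13310 CPM in pDC_WT, against 332 CPM at most in the conventional groups, and the 8 cDC1 markers summed to 4731 to 6147 CPM in cDC1_WT against 1101 CPM at most elsewhere. The 8 cDC2 markers summed to 2801 to 3301 CPM in cDC2_WT but also to 1437 to 1698 CPM in pDC_TG and 1804 to 2567 CPM in pDC_WT, so this list was not particular to cDC2_WT. In bulk RNA from sorted cells, fewer cells of a type and less RNA per cell cannot be told apart.

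Promoters of the family shared sequence features that the choice by symbol did not use. RefSeq gave promoter windows, 250 bases before to 50 after a transcription start, for 63 of the 84 genes (75 windows, build GRCm38.p6). The letters CTTTC, often found in the TOP tract, stood on the sense strand between 25 bases before and 50 after the start in 34 of 75 windows (45.3%), against 9.63% of all 32851 windows. The letters CGGAAG, which many ETS-family factors recognise, occurred on either strand in 45 windows (60%), against 16.9% of all windows. AAGATGGC, a core of the YY1 motif, occurred on either strand in 8 windows (10.7%, against 2.75%), and TATAAA lay within the 50 bases before the start in 1 window (1.33%, against 2.63%). These matches are letters in a window and not measured binding sites.

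The 7 stretches below run from 50 bases before the start to 30 bases from it on, 5' to 3', with CTTTC, and CGGAAG in either orientation, in capitals. Rplp2 (chr7:141447601-141447680, plus strand) and Rpsa (chr9:120127716-120127795, plus strand) are shown as examples with CTTTC, and Rps6 (chr4:86857338-86857417, minus strand) as an example with CGGAAG. In Rplp2 CTTTC begins at the annotated start. In Rpsa it lies downstream of the annotated start, so that stretch does not show a TOP tract there. Rpl31 (chr1:39367801-39367880, plus strand), Rps27l (chr9:66946036-66946115, plus strand, the first of 2 starts), Rpl36al (chr12:69184038-69184117, minus strand) and Rpl10 (chrX:74270766-74270845, plus strand) are shown because their levels departed from the rest of the family.
Rplp2: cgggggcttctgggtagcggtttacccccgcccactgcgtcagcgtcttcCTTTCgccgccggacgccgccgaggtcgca
Rpsa: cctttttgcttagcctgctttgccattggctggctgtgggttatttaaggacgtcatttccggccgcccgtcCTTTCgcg
Rps6: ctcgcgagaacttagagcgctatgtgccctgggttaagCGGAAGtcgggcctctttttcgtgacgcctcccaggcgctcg
Rpl31: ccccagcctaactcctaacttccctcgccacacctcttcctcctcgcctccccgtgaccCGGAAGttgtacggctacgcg
Rps27l: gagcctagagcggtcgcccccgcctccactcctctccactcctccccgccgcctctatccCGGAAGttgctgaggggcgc
Rpl36al: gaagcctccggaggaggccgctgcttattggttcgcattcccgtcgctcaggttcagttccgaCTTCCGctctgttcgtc
Rpl10: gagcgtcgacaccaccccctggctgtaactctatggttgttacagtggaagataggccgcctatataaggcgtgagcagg
The stretches of Rplp2 and Rpsa held CTTTC, those of Rps6, Rpl31, Rps27l and Rpl36al held CGGAAG or CTTCCG, and that of Rpl10 held neither in these 80 bases.

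The family as a whole took a few percent of all gene counts. In pDC_TG the 84 genes summed to 2.66%, 3.09%, 4.14% and 4.10% of gene counts in replicates 1 to 4, a mean of 3.50% ± 0.739 (SD, n = 4). The share was 2.93% to 4.34% in cDC1_WT (median 3.71%, mean 3.71% ± 0.433, n = 8), 2.71% to 3.88% in cDC2_WT (median 3.07%, mean 3.13% ± 0.419, n = 8) and 2.41% to 3.92% in pDC_WT (median 2.93%, mean 2.95% ± 0.516, n = 8). The ranges of every pair of groups overlapped, and no test was made of this sum.

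**Figure D1:**
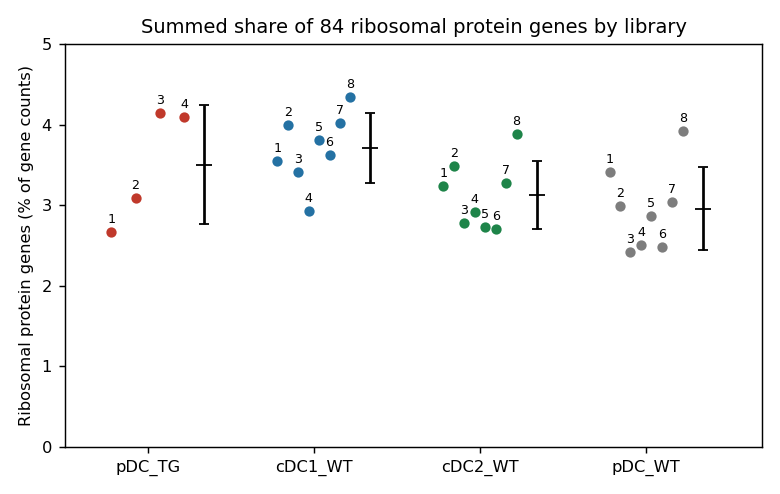
Share of gene counts (percent, y axis) taken by the 84 ribosomal protein genes in each library, by group (x axis); numbers are the replicate numbers of the labels, and bars are the mean ± SD. The 4 pDC_TG libraries span 2.66% to 4.14%, and replicate 8 is the highest library in cDC1_WT, cDC2_WT and pDC_WT.

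Single libraries moved the share as much as the groups did. Replicate 8 had the highest share in each of the 3 WT groups, 4.34% in cDC1_WT, 3.88% in cDC2_WT and 3.92% in pDC_WT, and pDC_TG replicates 3 and 4 lay above replicates 1 and 2. On the scale of TMM-scaled CPM, which adjusts for the makeup of each library, the sum averaged 31584 ± 7278 CPM in pDC_TG, 40953 ± 5434 CPM in cDC1_WT, 32260 ± 4620 CPM in cDC2_WT and 27433 ± 4888 CPM in pDC_WT. The balance of subunits stayed narrow: large-subunit genes supplied 58.8% ± 0.922 of the family's counts in pDC_TG, 57.8% ± 0.464 in cDC1_WT, 58.5% ± 0.455 in cDC2_WT and 59.5% ± 0.818 in pDC_WT.

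Levels differed widely within the family, and are compared between genes per kilobase of annotated transcript. Averaged over the 28 libraries, Rpl13, a large-subunit protein, was among the highest at 1877 CPM per kb. Rplp0, the scaffold of the P stalk that recruits elongation factors, had 1340 CPM per kb. At the low end Rpl26 had 0.320 CPM per kb and the heart and muscle paralogue Rpl3l had 0.230. The testis paralogue Rpl10l had no count in any library, which allows up to 0.0263 CPM in pDC_TG, 0.0158 in cDC1_WT, 0.0156 in cDC2_WT and 0.0146 in pDC_WT (3 counts over the group, counting error only).

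Some of the lowest values belong to subunits of the ordinary ribosome. Rps27 had 1.52 CPM in pDC_TG, 1.23 in cDC1_WT, 1.44 in cDC2_WT and 1.58 in pDC_WT, from 14 to 68 counts per library. Of the 75-base stretches of its transcript, 98.5% also occur in another annotated gene, most of them in the near-identical copy Rps27rt. The same share was 65.1% for Rpl30 (1.11 to 1.68 CPM over the groups), 48.9% for Rpl26 (0.0782 to 0.257 CPM) and 30.6% for Rpl34 (4.00 to 6.73 CPM). Shared sequence did not order the levels, since it covered 91.9% of Rpl10, whose groups averaged 661 to 1097 CPM. The sources used here do not give the treatment of reads that match several copies, and the counts of genes with such copies are uncertain.

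Within groups the genes moved together from library to library. Over the 74 genes with a mean of at least 100 CPM, the median Pearson r of 2701 gene pairs was 0.908 across the 28 libraries, after each library's log2 CPM was taken relative to its group mean. It was 0.0246 over the pairs of the 1952 other genes at that level. Of the 74 genes, 71 had r above 0.8 with the rest of the family, against 92 of the 1952 other genes (4.71%). These r describe genes measured in the same libraries, which share depth and RNA quality, and genes are not independent replicates.

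Among the other genes most like the family was one of its own kind, Fau (r = 0.987 with the summed family), which encodes a ribosomal protein fused to a ubiquitin-like one. Sec61b, a subunit of the protein-conducting channel of the endoplasmic reticulum, followed at r = 0.961, and Atp5e, of the mitochondrial ATP synthase, at r = 0.955. The exceptions within the family were Rpl7l1, a nucleolar paralogue of Rpl7, at r = 0.302, Rpl4 at r = 0.652 and Rpsa, the laminin receptor homologue of the small subunit, at r = 0.737.

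**Figure D2:**
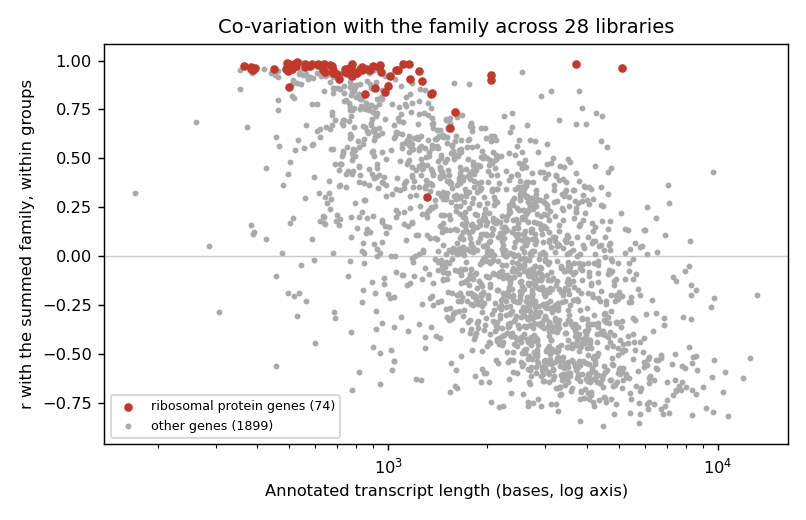
Pearson r between each gene and the summed family across 28 libraries after removing group means (y axis), against annotated transcript length in bases (x axis, log scale), for 74 ribosomal protein genes and 1899 other genes with a mean of at least 100 CPM and a known length. Most ribosomal protein genes sit near 1 at short lengths, where the r of other genes also tends to be higher.

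Transcript length moved with this pattern. Among other genes the median r with the family was 0.57 for the 286 with transcripts up to 1000 bases, 0.23 for the 508 longer ones of up to 2000 bases and -0.20 for the 1105 over 2000 bases. Of the 74 ribosomal protein genes, 57 had annotated transcripts up to 1000 bases, with a median r of 0.958. The 4 annotated at over 2000 bases had a median r of 0.945. These were Rps15a (5130 bases), Rps20 (3706), Rpl22 (2048) and Rpl5 (2045). The lengths follow from the choice of annotated transcript, and the transcripts made in these cells were not measured. The 4 therefore do not show how long mRNAs of the family behave. Within the family, genes of shorter annotated length varied more between libraries (Spearman rho of length and SD = -0.58, 74 genes). The part of transcript length, RNA quality or library preparation in the family's movement was not tested.

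Few genes of the family passed the test between pDC from Irf8fl/fl Itgax-cre and from Irf8fl/fl mice. In pDC_TG against pDC_WT, 6 of 82 genes tested rose, 0 fell and 76 did not pass the test (edgeR quasi-likelihood test, Benjamini-Hochberg adjusted p below 0.05 over 13159 genes); of all genes tested, 7.72% rose and 7.04% fell. The family's share, 7.32% higher, was near that background and is no result about the family. At an unadjusted edgeR p below 0.05, 16 genes of the family were higher and 0 lower. The count over all genes at that threshold is not given here. The family's genes move together, so these 16 are no result about the family either. DESeq2 called 7 of the family higher and 0 lower, against 1030 higher and 1112 lower of all 13159 genes. The log2 fold change was positive for 78 of 82 genes, with a median of 0.21 against 0 over all genes. In no ribosomal protein gene did the 4 pDC_TG and 8 pDC_WT libraries separate, against 4.9% of all genes separating upward and 4.81% downward.

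The count rested on single libraries. Leaving out pDC_TG replicate 4 gave 0 calls, replicate 3 gave 1 (Rpl4), and replicate 1 gave 13; 4 remained on leaving out replicate 2. Among the pDC_WT libraries, leaving out replicate 8 gave 12 and replicate 6 gave 2, while 3 remained on leaving out replicate 3, 4, 5 or 7. In a fit of these 2 groups alone it was 2 (Rpl11 and Rps20). With pDC_WT replicates 5 to 8 alone it was 0, and with total counts in place of TMM scaling it was 11. Over all genes, 828 of 11968, 727 of 12617 and 1195 of 13159 rose in these fits, in that order. Replicate 4 of pDC_TG also had the highest summed level of 9 neutrophil markers, 199 CPM, where the group's median was 2.47 CPM and the pDC_WT libraries had at most 2.62 CPM; the part of such cells in the result was not tested. In pDC_WT Camp and Elane of this list were at 0.

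Markers of other cells also moved with the pDC groups. The 6 T cell markers summed to 58.1 to 116 CPM in pDC_TG and 7.32 to 13.7 CPM in pDC_WT, and the 5 plasma cell markers measured summed to 1540 to 1744 CPM in pDC_TG and 808 to 1125 CPM in pDC_WT. The 6 B cell markers summed to 117 to 150 CPM in pDC_TG and 69.4 to 119 CPM in pDC_WT. The 18 proliferation markers summed to 442 to 724 CPM in pDC_TG and 295 to 368 CPM in pDC_WT. No marker of these 4 lists was at 0 in either pDC group, and their part in the family's levels was not tested.

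Rpl11, which with Rpl5 and the 5S rRNA can bind MDM2 and so stabilise p53, had 203, 242, 338 and 335 CPM in pDC_TG replicates 1 to 4, against 158 to 278 CPM in pDC_WT (median 194). Replicates 3 and 4 lay above every pDC_WT library, while replicates 1 and 2 lay among them. The log2 fold change was 0.51 (SE 0.15, adjusted p = 0.016). Its partner Rpl5 averaged 283 ± 36.4 CPM in pDC_TG and 259 ± 37.6 CPM in pDC_WT (log2 fold change 0.13, SE 0.11, adjusted p = 0.552).

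Rps20, at the head of the small subunit, had 305, 362, 622 and 589 CPM in pDC_TG, against 237 to 453 CPM in pDC_WT (median 289). Again replicates 3 and 4 stood above all pDC_WT libraries and replicates 1 and 2 did not. The log2 fold change was 0.61 (SE 0.18, adjusted p = 0.02), the largest rise of the 6. Rps9 had 1023, 1215, 1537 and 1512 CPM in pDC_TG, against 854 to 1299 CPM in pDC_WT (median 1016), a log2 fold change of 0.37 (SE 0.12, adjusted p = 0.0433) with the same pair of libraries on top.

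The other 3 genes called had smaller log2 fold changes than these, and their libraries also overlapped. Rpl4 had 702, 763, 727 and 793 CPM in pDC_TG, against 619 to 726 CPM in pDC_WT (median 654), so that 3 of 4 pDC_TG libraries lay above all of pDC_WT (log2 fold change 0.17, SE 0.06, adjusted p = 0.0307). Rpsa had 844, 963, 973 and 1007 CPM in pDC_TG, against 691 to 915 CPM in pDC_WT (median 778), again with 3 of 4 above (log2 fold change 0.25, SE 0.08, adjusted p = 0.0348). Rpl6 had 283, 314, 365 and 420 CPM in pDC_TG, against 247 to 330 CPM in pDC_WT (median 280), with 2 of 4 above (log2 fold change 0.30, SE 0.10, adjusted p = 0.0406).

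**Figure D3:**
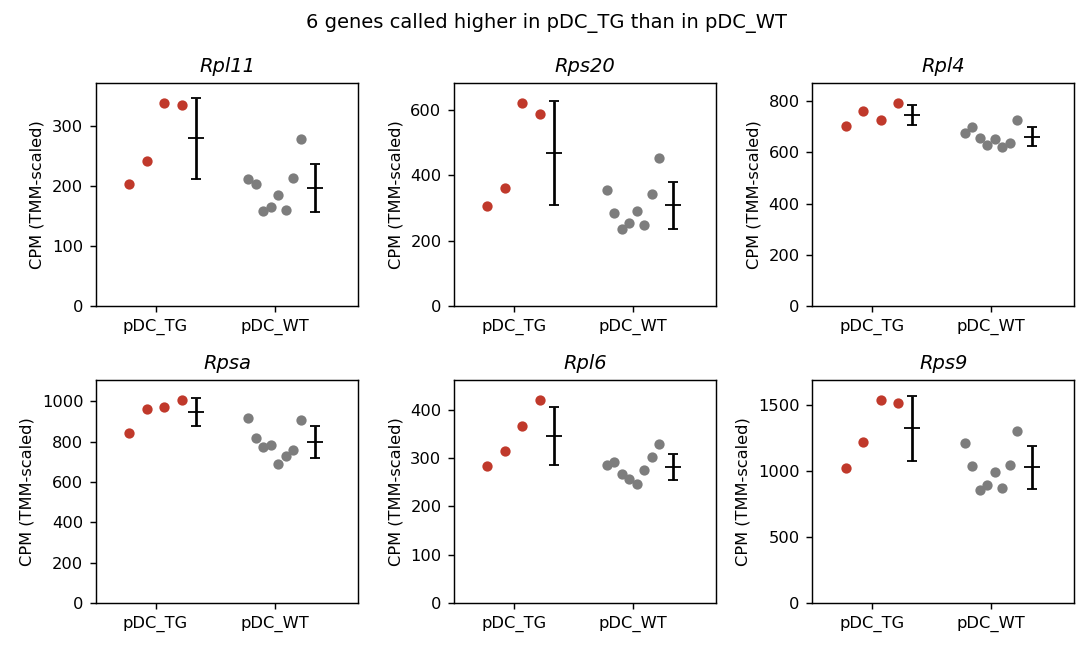
TMM-scaled CPM (y axis) of the 6 ribosomal protein genes called higher in pDC_TG, by library in pDC_TG and pDC_WT (x axis), with bars for the mean ± SD. Each gene's pDC_TG range overlaps that of pDC_WT, and Rps20 runs from 305 to 622 CPM within pDC_TG.

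Other subunits of known roles did not pass the test. Rplp0, often used as a reference gene, averaged 1472 ± 197 CPM in pDC_TG and 1408 ± 155 CPM in pDC_WT (log2 fold change 0.06, SE 0.09, adjusted p = 0.757). Rps6, the subunit phosphorylated by S6 kinase downstream of mTOR, averaged 794 ± 155 CPM in pDC_TG and 675 ± 101 CPM in pDC_WT (log2 fold change 0.23, SE 0.12, adjusted p = 0.195). The libraries of both groups overlapped for each.

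Measured against the rest of the family, 4 of 82 genes passed the test between the pDC groups, 2 higher and 2 lower. With that scaling, 464 of all 13159 genes were higher and 958 lower, larger shares than in the family. The count of 4 is therefore no result about the family. When each library was scaled to the family's summed counts, Rps20 (log2 fold change 0.38, SE 0.08, edgeR adjusted p = 0.00264) and Rpl11 (0.30, SE 0.08, adjusted p = 0.00787) were higher in pDC_TG. Rpl36al, a near copy of Rpl36a (-0.61, SE 0.11, adjusted p = 0.000423), and Rpl10, which sits by the P site (-0.26, SE 0.08, adjusted p = 0.0336), were lower. On the ordinary scale neither Rpl36al (-0.37, SE 0.20, adjusted p = 0.248) nor Rpl10 (-0.05, SE 0.12, adjusted p = 0.888) passed the test.

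**Figure D4:**
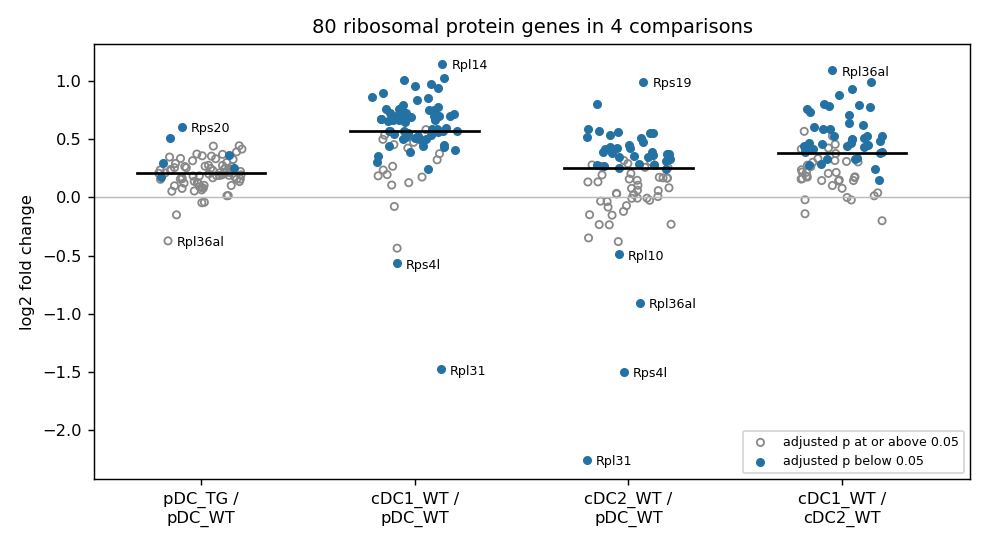
Log2 fold changes (y axis) of 80 ribosomal protein genes in 4 comparisons (x axis, first group over second), without the low-count genes Rpl3l and Rpl39l; filled points passed the adjusted p threshold of 0.05, and lines mark the medians, 0.21, 0.57, 0.25 and 0.38. All 4 medians lie above 0, with Rpl31 lowest at -1.48 in cDC1_WT and -2.25 in cDC2_WT against pDC_WT.

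Between the wild-type subsets, cDC1 had the higher ribosomal protein mRNA levels. In cDC1_WT against pDC_WT, 61 of 82 genes rose (74.4%, against 30.6% of all genes tested), 3 fell (3.66%, against 30.3%) and 18 did not pass the test, with a median log2 fold change of 0.57 against -0.03 over all genes. The libraries of both groups separated upward in 18 genes and downward in 2; over all genes tested 16% separated upward and 14.3% downward. With total counts in place of TMM scaling the all-gene median moved to -0.28 and the family's to 0.32. The family then had 42 genes higher and 3 lower, against 3072 and 5327 of all 13159 genes. The family's median stood above that of all genes under both scalings.

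Rpsa led by its test: it had 1406 to 1928 CPM in cDC1_WT (median 1609), against 691 to 915 CPM in pDC_WT. Every cDC1_WT library lay above every pDC_WT library, and the log2 fold change was 1.03 (SE 0.07, adjusted p = 2.94e-14). Rpl14, a large-subunit protein, had 431 to 666 CPM in cDC1_WT (median 566), against 217 to 332 CPM in pDC_WT (median 244), also without overlap (log2 fold change 1.15, SE 0.10, adjusted p = 2.89e-11). Rps2, by the mRNA entry channel, averaged 1110 ± 96.9 CPM in cDC1_WT and 571 ± 82.5 CPM in pDC_WT, a log2 fold change of 0.96 (SE 0.08, adjusted p = 2.05e-11).

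Rpl17 and Rps19 completed the largest rises in cDC1. Rpl17, near the exit of the peptide tunnel, averaged 431 ± 78.3 CPM in cDC1_WT and 215 ± 38.6 CPM in pDC_WT (log2 fold change 1.00, SE 0.13, adjusted p = 6.28e-08). Rps19, the gene most often mutated in Diamond-Blackfan anaemia in humans, averaged 826 ± 142 CPM in cDC1_WT and 421 ± 99.8 CPM in pDC_WT (log2 fold change 0.97, SE 0.16, adjusted p = 3.45e-06). For both genes the 2 groups did not overlap. The P-stalk genes rose as well, with log2 fold changes of 0.79 for Rplp0 (SE 0.08, adjusted p = 1.45e-10), 0.67 for Rplp1 (SE 0.15, adjusted p = 0.000376) and 0.57 for Rplp2 (SE 0.15, adjusted p = 0.00182).

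Fewer genes rose in cDC2, and their number depended on scaling. In cDC2_WT against pDC_WT, 33 of 82 genes rose (40.2%, against 28.8% of all genes), 5 fell (6.1%, against 28.3%) and 44 did not pass the test, with a median log2 fold change of 0.25 against -0.01. The libraries separated upward in 8 genes and downward in 3, where 15.6% and 13.7% of all genes did so. With total counts, 16 of 82 rose and 11 fell, against 3108 and 4541 of all 13159 genes. The family's median was then 0.10 and the all-gene median -0.16. With WT replicates 5 to 8 alone 14 of 82 rose, against 2829 of 12617 genes. In both of these fits a smaller share of the family than of all genes rose.

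Genes that rose in cDC2 against pDC included Rps19, at 668 to 1198 CPM in cDC2_WT (median 775) against 303 to 581 CPM in pDC_WT (median 402), with no overlap (log2 fold change 0.99, SE 0.16, adjusted p = 2.72e-06). Rps27a, made as a fusion with ubiquitin, had 403 to 678 CPM in cDC2_WT (median 486), against 220 to 424 CPM in pDC_WT (median 281), where the ranges met (log2 fold change 0.80, SE 0.14, adjusted p = 1.91e-05). Rpsa averaged 1196 ± 99.3 CPM in cDC2_WT and 797 ± 79.7 CPM in pDC_WT, again with no overlap (log2 fold change 0.59, SE 0.07, adjusted p = 8.03e-09).

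Between the conventional subsets, 42 of 82 genes rose in cDC1_WT against cDC2_WT (51.2%, against 22.8% of all genes), 0 fell (against 23.4%) and 40 did not pass the test. DESeq2 called 0 lower, against 3305 of all 13159 genes. Total counts gave 33 higher and 1 lower, against 2524 and 3632 of all genes. No gene of the family was lower at an unadjusted edgeR p below 0.05, where the count over all genes is not given here. The median log2 fold change was 0.38 against -0.01 over all genes, and with total counts 0.28 against -0.11. The libraries separated upward in 10 genes and downward in 0, where 10.4% and 10.8% of all genes did so. With WT replicates 1 to 4 alone 20 of 81 rose, against 1872 of 12613 genes.

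Among those 42, Rpl28 had 173 to 252 CPM in cDC1_WT (median 214), against 93.6 to 142 CPM in cDC2_WT (median 116), with no overlap (log2 fold change 0.88, SE 0.13, adjusted p = 2.73e-06). Rpl14 rose by a log2 fold change of 0.80 (SE 0.10, adjusted p = 7.54e-08). Of the genes that led in other comparisons, Rps19 averaged 826 ± 142 CPM in cDC1_WT and 838 ± 181 CPM in cDC2_WT (log2 fold change -0.02, SE 0.15, adjusted p = 0.939).

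Short genes outside the family had smaller median differences in the same comparisons. Ribosomal protein genes with transcripts up to 1000 bases had median log2 fold changes of 0.57 in cDC1_WT against pDC_WT, 0.17 in cDC2_WT against pDC_WT and 0.39 in cDC1_WT against cDC2_WT. For the 286 other genes of that length and of at least 100 CPM the medians were 0.14, -0.06 and 0.26. For pDC_TG against pDC_WT the medians were 0.21 in the family and 0.02 in the others. Reads outside any gene made up 12.8% to 14.8% in pDC_TG, 8.23% to 12.4% in cDC1_WT, 12.0% to 18.1% in cDC2_WT and 12.4% to 18.7% in pDC_WT, and the part of these differences in the family's levels was not tested.

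A few genes went against the family. Rpl31, beside the exit of the peptide tunnel (chr1:39367842-39371911, build GRCm38), had 201, 254, 463 and 483 CPM in pDC_TG, 78.6 to 148 CPM in cDC1_WT (median 117), 49.6 to 94.2 CPM in cDC2_WT (median 61.9) and 215 to 500 CPM in pDC_WT (median 309). Both pDC groups lay above both conventional groups in every library. Rpl31 fell by 1.48 on the log2 scale in cDC1_WT (SE 0.20, adjusted p = 1.96e-07) and by 2.25 in cDC2_WT (SE 0.20, adjusted p = 9.21e-11) against pDC_WT, and did not pass the test in pDC_TG (0.16, SE 0.24, adjusted p = 0.774).

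Rpl31 shares bases with its neighbour. Of the exon bases of its coding transcripts, 28.04% also lie in exons of other annotated genes, of which Tbc1d8 shares the most. The libraries do not mark strand, so the gene of origin of reads from the shared stretch cannot be told. The count tables set aside 1.04% to 1.57% of reads per library as ambiguous. Whether reads of this stretch were among them is not given in the sources used here. Tbc1d8, which encodes a TBC-domain protein, averaged 665 ± 64.4 CPM in pDC_TG, 485 ± 65.3 CPM in cDC1_WT, 398 ± 35.0 CPM in cDC2_WT and 694 ± 119 CPM in pDC_WT. Its log2 fold changes against pDC_WT were -0.52 in cDC1_WT (SE 0.09, adjusted p = 1.34e-05) and -0.80 in cDC2_WT (SE 0.09, adjusted p = 7.34e-09), in the direction of Rpl31 and smaller. The part of Tbc1d8 reads in the Rpl31 counts was not tested. Of the 75-base stretches of Rpl31, 54.7% also occur in other annotated genes, of which Rpl31-ps8 shares the most. The part of such copies in the Rpl31 counts was not tested either.

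Rps4l, annotated as a transcribed processed pseudogene (chr6:148354656-148355598), followed the same order. It had 56.3, 47.5, 49.4 and 56.1 CPM in pDC_TG, 24.6 to 36.2 CPM in cDC1_WT (median 32.1), 12.7 to 24.4 CPM in cDC2_WT (median 14.4) and 39.7 to 59.6 CPM in pDC_WT (median 43.6). No cDC1_WT or cDC2_WT library reached the lowest pDC library. It fell in cDC1_WT (log2 fold change -0.57, SE 0.13, adjusted p = 0.000298) and in cDC2_WT (-1.499, SE 0.13, adjusted p = 1.94e-11) against pDC_WT, and rose by 0.93 in cDC1_WT against cDC2_WT (SE 0.13, adjusted p = 3.95e-07).

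Rpl36al (chr12:69182731-69184083) and Rpl10 (chrX:74270812-74273135) were lowest in cDC2. Rpl36al had 104, 130, 235 and 224 CPM in pDC_TG, 178 to 318 CPM in cDC1_WT (median 253), 88.8 to 154 CPM in cDC2_WT (median 116) and 167 to 322 CPM in pDC_WT (median 220). The cDC2_WT libraries lay below all of cDC1_WT and pDC_WT, while the pDC_TG libraries spanned from among cDC2_WT to among pDC_WT. Rpl36al fell by 0.91 on the log2 scale in cDC2_WT against pDC_WT (SE 0.16, adjusted p = 2.06e-05) and rose by 1.09 in cDC1_WT against cDC2_WT (SE 0.16, adjusted p = 1.94e-06).

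Rpl10 averaged 898 ± 183 CPM in pDC_TG, 1097 ± 145 CPM in cDC1_WT, 661 ± 85.0 CPM in cDC2_WT and 927 ± 113 CPM in pDC_WT. It fell by 0.49 in cDC2_WT against pDC_WT (SE 0.10, adjusted p = 6.54e-05) and rose by 0.73 in cDC1_WT against cDC2_WT (SE 0.10, adjusted p = 1.9e-07). Its rise of 0.24 in cDC1_WT against pDC_WT (SE 0.10, adjusted p = 0.0296) was lost without any 1 of pDC_WT replicates 3, 4 and 5 or cDC1_WT replicates 7 and 8, with values of 0.21 to 0.23. With total counts it reversed to -0.01.

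Rps27l, a paralogue of Rps27 that p53 induces, had 66.2, 83.5, 127 and 107 CPM in pDC_TG, 113 to 249 CPM in cDC1_WT (median 162), 65.0 to 122 CPM in cDC2_WT (median 81.3) and 66.9 to 155 CPM in pDC_WT (median 92.4). Levels in cDC1_WT were the highest, with an overlap with each of the other groups. Rps27l rose in cDC1_WT by log2 fold changes of 0.84 against pDC_WT (SE 0.18, adjusted p = 0.000157) and 0.99 against cDC2_WT (SE 0.18, adjusted p = 3.09e-05).

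**Figure D5:**
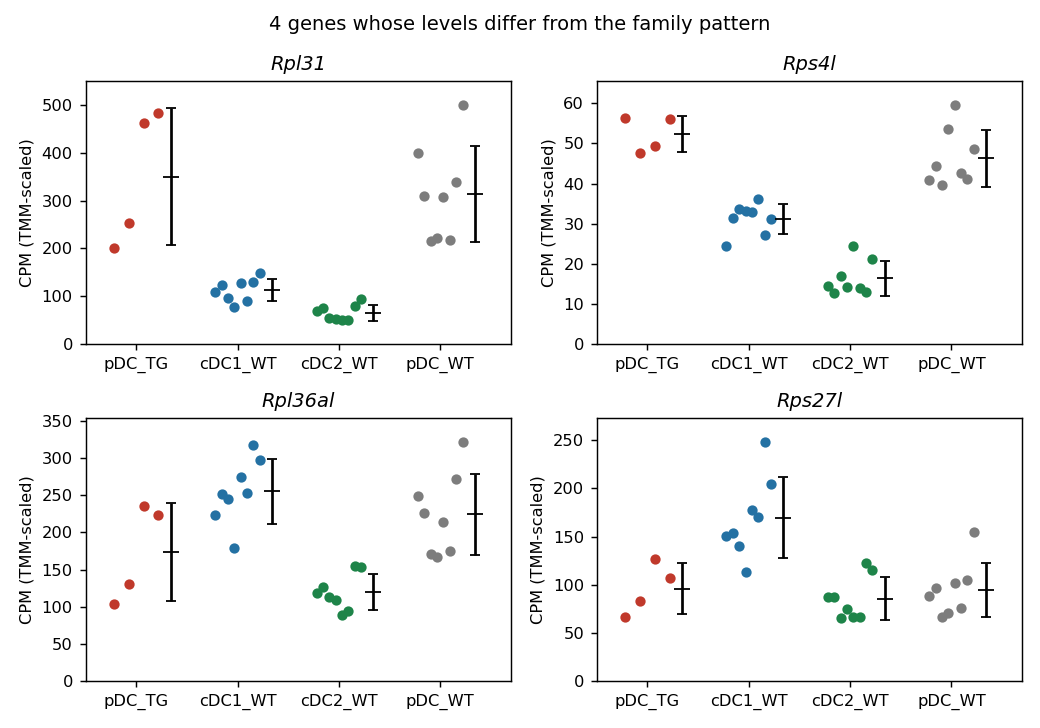
TMM-scaled CPM (y axis) of Rpl31, Rps4l, Rpl36al and Rps27l by library in the 4 groups (x axis), with bars for the mean ± SD. For Rpl31, all pDC_TG and pDC_WT libraries lie at or above 201 CPM and all conventional libraries at or below 148 CPM.

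Paralogues supplied different shares of their pair's counts in different subsets. These shares are not corrected for transcript length or shared sequence, so they do not say which copy had more mRNA. Rpl22l1 gave 32.5% ± 3.88 of the counts of itself and Rpl22 in pDC_TG, 20.7% ± 2.28 in cDC1_WT, 20.8% ± 1.48 in cDC2_WT and 32.9% ± 4.19 in pDC_WT (SD, n = 4 or 8), and the pDC groups did not overlap the conventional ones. The annotated transcripts have 525 bases for Rpl22l1 and 2048 for Rpl22. Per kilobase, Rpl22l1 averaged 77.3 CPM in pDC_TG, 67.3 in cDC1_WT, 54.6 in cDC2_WT and 71.0 in pDC_WT. Rpl22 averaged 41.8, 65.8, 53.3 and 36.1 in that order. Of their 75-base stretches, 53.9% of Rpl22l1 and 1.42% of Rpl22 also occur in another annotated gene. Of the pair, Rpl22 rose in cDC1_WT (log2 fold change 0.87, SE 0.15, adjusted p = 7.48e-06) and cDC2_WT (0.56, SE 0.15, adjusted p = 0.00157), while Rpl22l1 had -0.08 (adjusted p = 0.731) and -0.38 (adjusted p = 0.0764). Rpl22l1 passed the test in cDC2_WT without pDC_WT replicate 2 (adjusted p = 0.0476) or cDC2_WT replicate 8 (adjusted p = 0.0384).

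Rpl36al gave 71.0% ± 1.94 of its pair with Rpl36a in pDC_TG, 75.8% ± 1.20 in cDC1_WT, 64.1% ± 3.06 in cDC2_WT and 80.3% ± 1.69 in pDC_WT. The pDC_TG libraries, 69.0% to 73.7%, lay below all pDC_WT libraries, 77.7% to 82.3%, and no test of this share was made. Of the 75-base stretches, 40.4% of Rpl36al and 84.6% of Rpl36a also occur in another annotated gene. Of the exon bases of Rpl36al, 24.54% also lie in exons of other annotated genes, of which Gm49383 shares the most. The gene of origin of reads there cannot be told, and whether they were set aside as ambiguous is not given. Mgat2, an enzyme of N-glycan synthesis whose gene lies next to Rpl36al, averaged 231 ± 19.3 CPM in pDC_TG, 367 ± 33.7 CPM in cDC1_WT, 230 ± 18.2 CPM in cDC2_WT and 298 ± 22.2 CPM in pDC_WT. It was lower in pDC_TG than in pDC_WT (log2 fold change -0.37, SE 0.08, adjusted p = 0.00144) and its part in the Rpl36al counts was not tested.

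Rpl7l1 gave 13.97% ± 0.855 of its pair with Rpl7 in pDC_TG, 19.3% ± 1.82 in cDC1_WT, 19.3% ± 1.29 in cDC2_WT and 14.3% ± 1.93 in pDC_WT. It rose in cDC1_WT (log2 fold change 0.70, SE 0.08, adjusted p = 3.0e-09) and cDC2_WT (0.55, SE 0.08, adjusted p = 2.76e-07) against pDC_WT. Rpl7 had 0.17 (adjusted p = 0.0729) and 0.03 (adjusted p = 0.818) in the same comparisons. The pairs Rps27l with Rps27 and Rpl39l with Rpl39 were read almost wholly from 1 copy, 98.2% to 99.3% Rps27l and at most 0.317% Rpl39l as group means, with Rps27 itself nearly uncounted.

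Rpl3l was at the edge of detection, with 55 counts over pDC_TG, 9 over cDC1_WT, 15 over cDC2_WT and 101 over pDC_WT. It passed the test as lower in cDC1_WT (-3.15, SE 1.07, adjusted p = 0.0123) and in cDC2_WT (-2.53, SE 1.03, adjusted p = 0.0374) against pDC_WT. Replicate 8 of pDC_WT stood at 1.65 CPM, against a group median of 0.346 CPM. Without it the values were -2.51 (adjusted p = 0.0426) in cDC1_WT and -1.89 (adjusted p = 0.121) in cDC2_WT, and the cDC2_WT call was also lost without pDC_WT replicate 7 or without cDC2_WT replicate 2, 4, 6 or 8.

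Lists of related genes are described by counts and medians, with no test of a list. Of all genes tested, 7.72% rose and 7.04% fell in pDC_TG against pDC_WT, 30.6% and 30.3% in cDC1_WT against pDC_WT, 28.8% and 28.3% in cDC2_WT against pDC_WT, and 22.8% and 23.4% in cDC1_WT against cDC2_WT. The ribosomal protein genes outside the symbol pattern come first. Between pDC_TG and pDC_WT 0 of the 4 passed the test, in cDC1_WT against pDC_WT 4 rose, in cDC2_WT against pDC_WT 3 rose and in cDC1_WT against cDC2_WT 2 rose, and 0 fell in each. Gnb2l1, the signalling scaffold RACK1 on the small subunit, had the largest of these in cDC1_WT against pDC_WT, at 0.74 (SE 0.08, adjusted p = 4.27e-09).

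Translation factors and partners whose mRNAs also carry TOP tracts were called higher in cDC1_WT more often than all genes were. Of 17 tested, 13 rose (76.5%, against 30.6% of all genes) and 0 fell in cDC1_WT against pDC_WT (median log2 fold change 0.48 against -0.03 over all genes), and 11 rose (64.7%, against 22.8%) and 2 fell against cDC2_WT. In cDC2_WT against pDC_WT 8 rose (47.1%, against 28.8%) and 2 fell. Eef1a1, the elongation factor that delivers aminoacyl-tRNA, averaged 4776 CPM in pDC_TG, 6056 in cDC1_WT, 5315 in cDC2_WT and 4342 in pDC_WT. Against pDC_WT, pDC_TG had 1 that rose (5.88%, near the 7.72% of all genes), Eef1g (0.23, SE 0.08, adjusted p = 0.045), and 0 fell.

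Of 37 ribosome biogenesis genes tested, 24 rose (64.9%, against 30.6% of all genes) and 2 fell in cDC1_WT against pDC_WT, and 21 rose (56.8%, against 22.8%) and 0 fell in cDC1_WT against cDC2_WT. In cDC2_WT against pDC_WT 13 rose (35.1%, near the 28.8% of all genes) and 4 fell (10.8%, against 28.3%). Against pDC_WT, 4 rose in pDC_TG (Dkc1, Polr1e, Rrp9 and Nop56; 10.8%, near the 7.72% of all genes) and 1 fell (2.7%, against 7.04%). That 1 was Fbl, the rRNA methyltransferase fibrillarin, at 90.8 ± 15.2 CPM in pDC_TG and 133 ± 11.9 CPM in pDC_WT (log2 fold change -0.55, SE 0.09, adjusted p = 6.36e-05). Dkc1, the pseudouridine synthase, averaged 46.0 ± 9.49 CPM in pDC_TG and 26.5 ± 2.57 CPM in pDC_WT (0.80, SE 0.14, adjusted p = 0.000144).

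Of 29 initiation factors tested, 21 were higher (72.4%, against 30.6% of all genes) and 3 lower (10.3%, against 30.3%) in cDC1_WT against pDC_WT. Against cDC2_WT 19 were higher in cDC1_WT (65.5%, against 22.8%) and 2 lower, while in cDC2_WT against pDC_WT 4 were higher (13.8%, against 28.8%) and 6 lower (20.7%, against 28.3%). For pDC_TG against pDC_WT 2 were higher (Eif4a2 and Eif4h) and 2 lower (Eif1a and Eif5b), 6.9% each way and near the shares of all genes. Mitochondrial ribosomal protein genes mostly fell where they passed the test in cDC2: of 77, 6 rose (7.79%, against 28.8%) and 27 fell (35.1%, against 28.3%) in cDC2_WT against pDC_WT, with a median log2 fold change of -0.15. They counted 28 higher (36.4%, near the 30.6% of all genes) and 3 lower (3.9%, against 30.3%) in cDC1_WT against pDC_WT, and 50 higher (64.9%, against 22.8%) and 0 lower in cDC1_WT against cDC2_WT. In pDC_TG against pDC_WT 2 were higher (Mrps6 and Mrpl13; 2.6%, against 7.72%) and 0 lower. The difference between the 2 families was not tested.

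Of 24 regulators of ribosomal protein genes and TOP mRNAs, 5 rose (20.8%, against 7.72% of all genes) and 1 fell (4.17%, against 7.04%) in pDC_TG against pDC_WT. Those that rose included 2 inhibitors of mTOR signalling, Ddit4 at 18.2 ± 5.21 CPM in pDC_TG and 5.76 ± 1.36 CPM in pDC_WT (log2 fold change 1.66, SE 0.43, adjusted p = 0.00685) and Sesn1 (0.55, SE 0.16, adjusted p = 0.0168). Eif4ebp2, which restrains translation in this pathway, and the kinase Akt1 rose as well, and Sesn2, another inhibitor, fell (-0.58, SE 0.19, adjusted p = 0.0327). Between the WT groups the shares were near those of all genes in cDC1_WT against pDC_WT (6 higher, 25%, and 7 lower, 29.2%) and in cDC1_WT against cDC2_WT (5 higher, 20.8%, and 7 lower, 29.2%). In cDC2_WT against pDC_WT 11 were higher (45.8%, against 28.8%) and 3 lower (12.5%, against 28.3%). Myc, a transcription factor that promotes ribosome production, averaged 3.26 CPM in pDC_TG, 26.5 CPM in cDC1_WT, 34.1 CPM in cDC2_WT and 1.54 CPM in pDC_WT.

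Of 10 p53 target genes, 0 rose and 2 fell (20%, against 7.04% of all genes) in pDC_TG against pDC_WT, Btg2 (-0.57, SE 0.14, adjusted p = 0.00588) and Ccng1 (-0.36, SE 0.11, adjusted p = 0.0295). The counts were 4 higher and 3 lower in cDC1_WT against pDC_WT, 3 and 2 in cDC2_WT against pDC_WT, and 2 and 4 in cDC1_WT against cDC2_WT. With 10 genes these are within a few genes of the shares of all genes.

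Other marker lists moved with the WT groups. The 14 dissociation and immediate early genes summed to 16604 to 23077 CPM in cDC1_WT, 31483 to 38910 CPM in cDC2_WT and 7608 to 11416 CPM in pDC_WT. The 9 markers of red pulp macrophages and monocytes summed to 413 to 528 CPM in cDC1_WT, 576 to 768 CPM in cDC2_WT and 2754 to 3669 CPM in pDC_WT. The 18 proliferation markers summed to 1528 to 1894 CPM in cDC1_WT, 1270 to 1718 CPM in cDC2_WT and 295 to 368 CPM in pDC_WT. No gene of these 3 lists was at 0 in any WT group, and their part in the differences of the family between WT groups was not tested.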

How the data were processed

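Bulk RNA-seq of 28 sorted cell libraries was analysed from raw read counts per gene symbol that the authors deposited, not normalized. Per the labels' protocols, 4 ng of RNA was amplified with SMART-Seq v4 and read as single 75-base reads, without strand or molecule marks. The submitters' processing notes list build mm10, SAMtools 0.1.18, Trimmomatic 0.35 and TopHat2 2.1.0; the counting tool and annotation are not given in the sources used here. Summary lines were left out of library sizes; no-feature reads were 8.23% to 18.7%.

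In R 4.3.3 with edgeR 4.0.16, all libraries entered 1 robust quasi-likelihood fit of 4 groups with TMM scaling. Of 24421 genes, 13159 passed filterByExpr (minimum count 10), including 82 of the 84; Rpl10l and Rpl26 did not. Tests were two-sided, with Benjamini-Hochberg adjustment over all genes tested and a threshold of 0.05. Same-numbered WT libraries, which may come from the same mice, were treated as independent. The scripts were tested on simulated data. DESeq2 1.42.0 was an alternative. CPM is TMM-scaled. Lengths, positions and shared 75-base stretches come from the GENCODE annotation of build GRCm38, and lengths are the lower median over coding transcripts.

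Members, lists and the rule for named genes were chosen with earlier results of these data known. Named are genes called in pDC_TG, the 6 largest called changes with at least 10 CPM in each WT comparison, paralogue pairs, genes of known roles, the 3 highest and 3 lowest, and list members with the smallest p-values. Neighbours, Eef1a1, Gnb2l1, Myc, Sesn2, Sesn1 and other list members were chosen after their values were seen. No libraries agreed within sampling noise (lowest chi-square per degree of freedom 33.6). The results of some genes that the rule names are not reported here.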

Additional observations from a re-analysis of the deposited data

Results flagged for a closer look

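In each group, the highest and lowest library of every named gene and of the family's share was set against the others by Dixon's gap test. Of 148 sets of values, 13 stood apart, and chance flags about 1 in 20. Replicate 8 of pDC_WT was far above the other 7 pDC_WT libraries for 9 genes: Rpl11 at 278.1 CPM, Rpl14 at 332.3 CPM, Rps27l at 154.9 CPM, Rpl22l1 at 65.76 CPM, Rpl22 at 106.1 CPM, Rpl3l at 1.652 CPM, Rpl7 at 845.1 CPM, Rps6 at 891.6 CPM and Rpl5 at 343.3 CPM. These genes move together, so the flags are not independent of each other. Replicate 8 of cDC2_WT stood apart for Rpl13, at 2023 CPM. Replicate 1 of pDC_WT was far below the others for Rpl7l1, at 79.61 CPM. Rpl39l, a testis paralogue of Rpl39 counted at most 18 times in a library, stood apart in pDC_TG replicate 3, at 0.4993 CPM, and in cDC1_WT replicate 8, at 0.4804 CPM.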

How the results depend on the processing

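Of the counts of genes called, those with DESeq2, other low-count filters or TMM without the family stayed within 1.5 times of those reported in each comparison. In pDC_TG against pDC_WT the 6 genes called higher became 11 with total counts, against 1195 of all 13159 genes. With libraries scaled to the family's sum 2 were higher and 2 lower, against 464 and 958 of all genes. A fit of the 2 groups alone gave 2, against 828 of 11968. WT replicates 5 to 8 gave 0, against 727 of 12617. A test against a 1.5-fold change gave 0, against 337 of 13159. Leaving out single libraries gave 0 to 13 higher and 0 to 0 lower. In cDC1_WT against pDC_WT the family's scale gave 17 higher and 17 lower, against 1980 and 6826 of all 13159 genes. The 1.5-fold test gave 12 of 82 higher, against 2365 of all genes, a smaller share in the family. Leaving out single libraries gave 55 to 68 higher and 3 to 3 lower. In cDC2_WT against pDC_WT total counts gave 16 higher and 11 lower, against 3108 and 4541 of all 13159 genes. The family's scale gave 15 and 22, against 2587 and 4642. WT replicates 5 to 8 gave 14 higher, against 2829 of 12617. The 1.5-fold test gave 1 higher and 3 lower, against 2322 and 2068 of 13159, smaller shares in the family. Leaving out single libraries gave 28 to 40 higher and 4 to 6 lower. In cDC1_WT against cDC2_WT total counts gave 1 lower, against 3632 of all 13159 genes. The family's scale gave 17 higher and 13 lower, against 1412 and 4579. WT replicates 1 to 4 gave 20 higher, against 1872 of 12613. The 1.5-fold test gave 5 higher, against 1193 of 13159, a smaller share in the family. Leaving out single libraries gave 36 to 51 higher and 0 to 0 lower.

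The summed share without the most abundant other genes in the total was 5.544% in pDC_TG, 6.709% in cDC1_WT, 5.425% in cDC2_WT and 4.813% in pDC_WT, and with all reads as the total 2.97% in pDC_TG, 3.285% in cDC1_WT, 2.628% in cDC2_WT and 2.474% in pDC_WT. Leaving out single libraries gave 3.285% to 3.779%, 3.618% to 3.819%, 3.019% to 3.186% and 2.817% to 3.031% in that order of groups.

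Of single named genes, 20 log2 fold changes reversed, 19 of them on the family's scale, which is centred on the family by construction. These were, in pDC_TG against pDC_WT, Rpl4 (-0.003167); in cDC1_WT against pDC_WT, Rpl11 (-0.01601), Rps20 (-0.2164), Rpl4 (-0.01438), Rps9 (-0.4789), Rpl36al (-0.3845), Rpl3 (-0.002211), Rpl10 (-0.3498), Rpl36a (-0.00883), Rpl7 (-0.4134) and Rpl13 (-0.01594); in cDC2_WT against pDC_WT, Rpl7 (-0.2134); and in cDC1_WT against cDC2_WT, Rpl4 (-0.1938), Rpl6 (-0.07199), Rps27a (-0.202), Rpl3 (-0.01866), Rpl7 (-0.2), Rplp2 (-0.3005) and Rpl13 (-0.1996). With total counts Rpl10 in cDC1_WT against pDC_WT was -0.00795. Of the other values, 201 lost their call, 35 gained one and 3157 kept it or stayed uncalled. The cause was not tested.

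Replicate numbers were not taken to pair the libraries, since the labels do not say whether a number marks the same mice in different cell types, and the lowest pairs were near 0. The correlation of same-numbered deviations from the group means was -0.11 to -0.01 between pDC_TG and pDC_WT (0 of 4 best with their own number), 0.05 to 0.33 between cDC1_WT and pDC_WT (6 of 8), 0.06 to 0.39 between cDC2_WT and pDC_WT (6 of 8) and 0.05 to 0.32 between cDC1_WT and cDC2_WT (7 of 8). All WT correlations were thus positive, against a mean of -0.03 for other numbers in each WT comparison. Most WT libraries were most like their own number, a sign in the data that WT libraries of 1 number share something. The fit that treats them as independent does not account for it. The labels' protocols name 2 flow cells without saying which library ran on which, and their part was not tested. With the replicate block the counts were 67 higher and 3 lower, 37 and 5, and 49 and 0 in the WT comparisons. Over all 13159 genes they were 4029 and 4034, 3858 and 3779, and 3035 and 3160. The block also gave 15 genes of the family higher in pDC_TG, against 1053 of all genes. There it joined same-numbered pDC_TG and pDC_WT libraries, which come from mice of different genotypes and did not match by number. No conclusion is drawn from that count. Of the named genes, 1 lost its call under the block (Rpl3l in cDC2_WT against pDC_WT) and 6 gained one, 3 of them in the WT comparisons (Rpl39 and Rpl7 in cDC1_WT against pDC_WT, Rpl11 in cDC1_WT against cDC2_WT). Counts of Rpl3l, Rpl39l, Rpl26, Rps27 and Rpl30 are too low for small differences to be detectable at this depth.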
